A study of Rattus norvegicus with 6 samples.

Results

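The genes described here are 10 markers of nonpeptidergic nociceptors and itch neurons of the rat dorsal root ganglion: Mrgprd, Il31ra, Osmr, Nppb, Hrh1, Lpar3, Lpar5, Plxnc1, Cysltr2 and Th. They were taken by gene symbol from a table of 23800 features, which held all 10. The study compared ganglia of the bone cancer pain group (BCP) with those of its sham group (sBCP). All rats were Sprague Dawley rats, and each had its left tibial plateau drilled under isoflurane. MRMT-1, a breast carcinoma line from the rat, was then placed in the marrow cavity in 10 µL of medium. BCP rats received living cells and sBCP rats received boiled cells. On day 17 the rats were perfused and the L3, L4 and L5 ganglia were collected on the side of the injected tibia. Polyadenylated RNA was sequenced from 3 samples of BCP, numbered 1, 2 and 3, and from 3 of sBCP, numbered 1, 3 and 4. Each p-value sets the difference between the groups against the spread of samples within them. The labels do not say whether a sample was 1 animal or a pool, so what that spread stands for is unknown, and it may be in part technical.

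Nonpeptidergic nociceptors are small sensory neurons with unmyelinated axons that end mainly in the skin, and most of what follows on their classes is known from the mouse. Those that express Mrgprd respond to noxious mechanical stimuli and to beta-alanine. A further class makes the peptide encoded by Nppb, senses histamine, leukotrienes and the cytokine IL-31, and drives itch. Th marks C-low-threshold mechanoreceptors, which respond to light touch of the skin. The ganglion was sequenced whole, so a lower value can mean fewer neurons of a class or less RNA per neuron, which cannot be told apart here, and glia, fibroblasts, vessels and leukocytes can also contribute to genes such as Osmr, Hrh1 and Lpar5.

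Sequences before the start of the genes were read from RefSeq (build GRCr8) to show where motifs tied to these neurons occur. The sequences at hand covered 9 of the 10 markers, all but Mrgprd. For 4 of them (Nppb, Hrh1, Cysltr2 and Th) 190 bases before the outermost annotated start could be read. They were searched on both strands for the motif of RUNX factors (TGTGGT or TGCGGT), to which Runx1, a regulator of the nonpeptidergic lineage in the mouse, belongs, and for the cAMP response element (CRE, TGACGTCA). The windows of Nppb and Th are shown because each held a match, in capitals. The RUNX letters of Nppb begin 160 bases before the start, and the CRE of Th begins 11 bases before it.
Nppb, chr5:163699765-163699954, plus strand: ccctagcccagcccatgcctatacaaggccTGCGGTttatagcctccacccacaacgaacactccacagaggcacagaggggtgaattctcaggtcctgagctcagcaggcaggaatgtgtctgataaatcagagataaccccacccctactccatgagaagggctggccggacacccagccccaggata
Th, chr1:207508277-207508466, minus strand: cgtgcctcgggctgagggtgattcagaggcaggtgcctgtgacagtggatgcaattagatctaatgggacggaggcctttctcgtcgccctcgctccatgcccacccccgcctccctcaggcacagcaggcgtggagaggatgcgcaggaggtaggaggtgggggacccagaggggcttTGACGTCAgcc
Of 23567 rat windows read the same way, 14.7% held the RUNX letters and 1.33% the CRE letters. A match describes the sequence and is not evidence of a bound site.

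The values are FPKM, which scale fragments by gene length and by the size of the library, so levels can be compared between genes as far as the gene models are right. The number of reads is unknown, but the steps between low values put the other 5 libraries at 1.11 to 1.31 times the depth of BCP replicate 1. The 13710 features that reached 1 FPKM in 3 or more libraries were tested with limma on log2(FPKM + 1), and all 10 markers were among them. The limma test called 25 features at an adjusted p under 0.05, which is 0.182% of those tested. BCP replicate 2 stood apart by genes of axon injury, whose summed level was 760 FPKM there, 274 and 254 FPKM in BCP replicates 1 and 3, and 261 to 288 FPKM in sBCP. Macrophage genes set the same library apart, with a summed level of 62.6 FPKM there, 25.0 and 14.8 FPKM in BCP replicates 1 and 3, and 21.4 to 33.4 FPKM in sBCP. The part of either list in the marker values was not tested. All 7 tested skeletal muscle genes were called lower in BCP, with summed levels of 13.5 to 21.4 FPKM in BCP and 487 to 859 FPKM in sBCP. Pan-neuronal genes such as Tubb3 and Uchl1 summed to 9018 to 10386 FPKM in BCP and 8013 to 10223 FPKM in sBCP.

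By level, the markers ran from Il31ra and Mrgprd down to Nppb. Il31ra averaged 15.7 ± 3.96 FPKM and Mrgprd 15.2 ± 2.27 FPKM over the 6 libraries (SD, n = 6), and 64.3% and 63.5% of the tested features lay lower. Plxnc1 followed at 7.89 ± 2.21 FPKM and Lpar5 at 4.11 ± 0.686 FPKM. Cysltr2, Osmr, Lpar3, Th and Hrh1 lay between 3.04 and 1.83 FPKM, and Nppb closed the order at 0.959 ± 0.227 FPKM, near the filter. In this order the ranges of neighbours overlapped except between Mrgprd and Plxnc1 and between Hrh1 and Nppb. The deposited table places Mrgprd on chromosome 1 at 218487824 to 218488783 in an interval of 960 bases, and gives Cysltr2, Lpar5 and Hrh1 similarly short intervals of 930, 1537 and 1743 bases. The genome build behind these coordinates is not given in the sources used here. A level measured over so short a model depends on which exons it holds, so differences in level between genes are less firm than differences between samples. No marker's interval overlapped another feature of the table (0 overlaps for each).

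**Figure D1:**
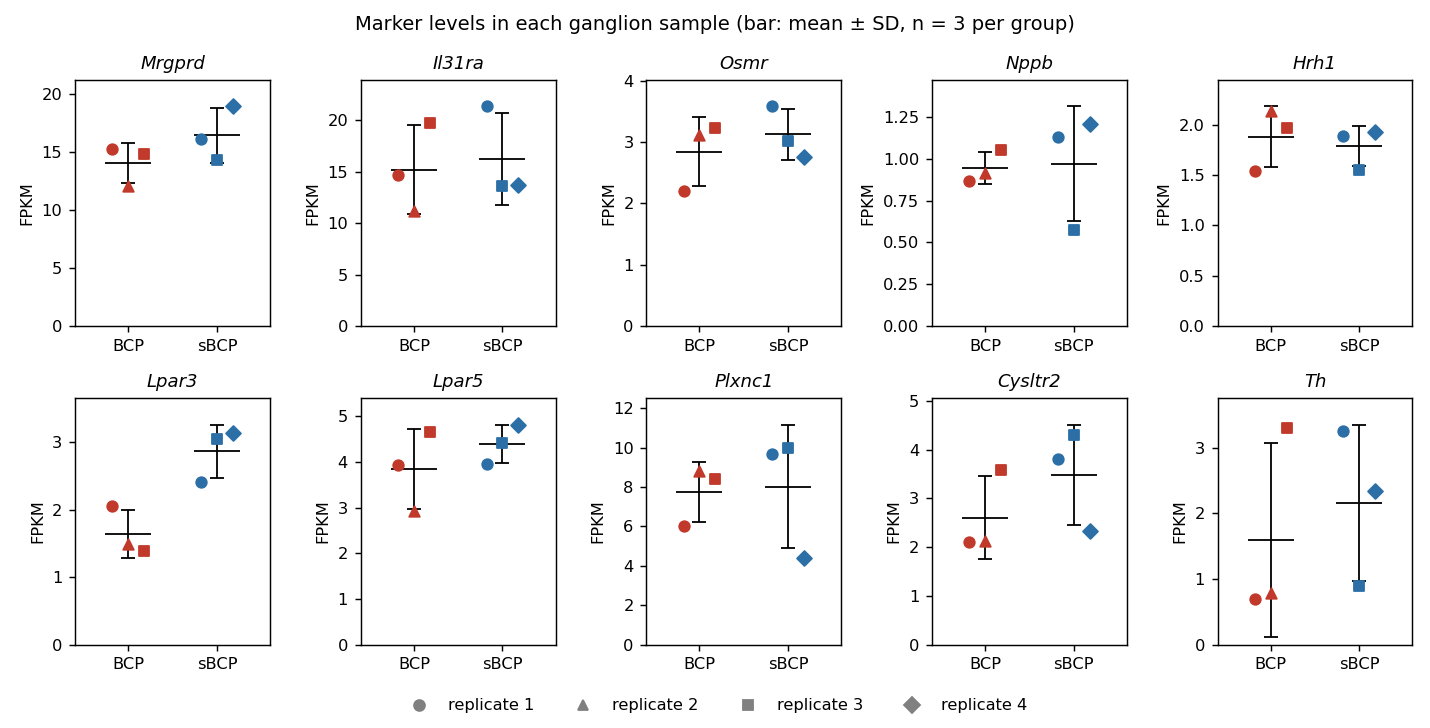
FPKM of each of the 10 markers in the 3 BCP samples (red, left) and the 3 sBCP samples (blue, right), with symbols for the replicate number and a bar for the mean ± SD; each panel has its own axis from 0. The groups overlap in every panel but that of Lpar3, where the BCP samples lie at 1.38 to 2.04 FPKM and the sBCP samples at 2.41 to 3.13 FPKM.

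Among the receptors of nonpeptidergic nociceptors, Lpar3 had lower values in every BCP sample, and no receptor passed the test across all features. Lpar3, a receptor for the lipid lysophosphatidic acid, was at 2.04, 1.48 and 1.38 FPKM in BCP replicates 1, 2 and 3, against 2.41, 3.05 and 3.13 FPKM in sBCP replicates 1, 3 and 4. The groups did not overlap, and Lpar3 averaged 1.64 ± 0.356 FPKM across BCP and 2.86 ± 0.396 FPKM across sBCP libraries (SD, n = 3 each), a ratio of 0.572. On the log2(FPKM + 1) scale the difference was -0.55 with a standard error of 0.153 and a 95% interval from -0.91 to -0.19, and the limma adjusted p was 1.00. By unadjusted p (0.00843) the gene ranked 69th of 13710 features, and 1.98% of the features had an unadjusted p under 0.05. Groups that did not overlap with BCP lower were seen in 1 of the 10 markers, beside 3.06% of all tested features. An exact two-sided permutation test of Lpar3 gave p = 0.1, the smallest that 3 samples against 3 allow. Groups of this size that do not overlap always give this value, so it adds nothing to the lack of overlap.

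The lower Lpar3 values were also seen relative to other genes of the same neurons within each library, a comparison chosen after its values were seen. Lpar3 was at 13.4%, 12.3% and 9.32% of the Mrgprd level in BCP replicates 1, 2 and 3, against 15.0%, 21.4% and 16.5% in sBCP replicates 1, 3 and 4. Relative to Lpar5 it was at 51.9%, 50.9% and 29.7% in BCP, against 60.8%, 69.1% and 65.1% in sBCP. Relative to P2rx3, the ATP-gated channel of nonpeptidergic neurons, it was at 1.68%, 1.18% and 1.05% in BCP, against 1.83%, 2.15% and 2.16% in sBCP. None of these 3 ratios overlapped between the groups (0 of 3). The ratio of Lpar3 to the family member Lpar1 did overlap, at 6.42% to 10.7% in BCP and 10.1% to 16.6% in sBCP. All these ratios reuse Lpar3 values whose own groups did not overlap, so they are not further support for a difference. Skeletal muscle genes moved with the groups in the same direction. Within BCP their summed level and Lpar3 were both highest in replicate 1, at 21.4 and 2.04 FPKM. Within sBCP the muscle sum was highest in replicate 1 at 859 FPKM, where Lpar3 was lowest at 2.41 FPKM. Over the 6 libraries Lpar3 had a Pearson r of 0.87 with the mean of the skeletal muscle genes. Muscle level and group went together, so their parts in the Lpar3 difference cannot be told apart and were not tested. Leaving out each library in turn gave ratios of 0.501 to 0.617.

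Mrgprd, the receptor that names the class, was at 15.2, 12.0 and 14.8 FPKM in BCP, against 16.1, 14.3 and 18.9 FPKM in sBCP. The lowest value was that of BCP replicate 2, where the injury genes were high, and the highest was that of sBCP replicate 4, but the groups overlapped. Mrgprd averaged 14.02 ± 1.73 FPKM across BCP and 16.4 ± 2.35 FPKM across sBCP libraries (SD, n = 3 each), with a log2 difference of -0.21 and a 95% interval from -0.52 to 0.10 (limma adjusted p = 1.00). Leaving out single libraries gave differences from -0.30 (sBCP replicate 3) to -0.11 (BCP replicate 2 or sBCP replicate 4).

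Lpar5, a second receptor for lysophosphatidic acid, was at 3.94, 2.92 and 4.66 FPKM in BCP, against 3.96, 4.41 and 4.81 FPKM in sBCP. BCP replicate 2 was again lowest, and the other libraries lay within 3.94 to 4.81 FPKM. The difference was -0.17 on the log2 scale (95% interval from -0.55 to 0.20, limma adjusted p = 1.00). It was -0.03 when BCP replicate 2 was left out and -0.29 when BCP replicate 3 was. Relative to Mrgprd within each library, Lpar5 overlapped between the groups, at 27.2% ± 3.74 of its level across BCP and 27.0% ± 3.44 across sBCP (SD, n = 3 each).

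Plxnc1, the plexin receptor of semaphorin 7A, was at 6.01, 8.82 and 8.42 FPKM in BCP, against 9.67, 10.0 and 4.39 FPKM in sBCP. The lowest values were those of BCP replicate 1 and sBCP replicate 4, so the spread ran across the groups. The difference was 0.01 on the log2 scale with a 95% interval from -0.67 to 0.69 (limma adjusted p = 1.00). Without sBCP replicate 4 it was -0.32.

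The receptor chains for IL-31 were present at unequal levels. Il31ra, the chain that binds IL-31, was at 14.7, 11.2 and 19.7 FPKM in BCP, against 21.4, 13.6 and 13.7 FPKM in sBCP. BCP replicate 3 and sBCP replicate 1 were high, and the groups overlapped. Osmr, the partner chain that also serves oncostatin M, was at 2.20, 3.11 and 3.22 FPKM in BCP, against 3.59, 3.02 and 2.76 FPKM in sBCP. Il31ra exceeded Osmr in every library, by 3.60 to 6.69 times with a mean of 5.31. The log2 differences were -0.09 for Il31ra (95% interval from -0.65 to 0.46) and -0.11 for Osmr (from -0.47 to 0.26), with limma adjusted p of 1.00 for both. Leaving out BCP replicate 2 put the Il31ra difference at 0.09, and leaving out sBCP replicate 1 put it at 0.11.

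The itch peptide and the mediator receptors had low levels. Nppb, the precursor of the natriuretic peptide that itch neurons release in the mouse spinal cord, was at 0.867, 0.919 and 1.05 FPKM in BCP, against 1.13, 0.576 and 1.21 FPKM in sBCP. It passed the filter through BCP replicate 3 and sBCP replicates 1 and 4, and its mean was 0.947 ± 0.0968 FPKM across BCP and 0.972 ± 0.345 FPKM across sBCP (SD, n = 3 each). Hrh1, the histamine H1 receptor, was at 1.54, 2.13 and 1.96 FPKM in BCP, against 1.88, 1.55 and 1.92 FPKM in sBCP. These genes lay close to no difference, with 95% intervals from -0.42 to 0.41 for Nppb and from -0.29 to 0.38 for Hrh1 on the log2 scale. Cysltr2, a receptor for cysteinyl leukotrienes, was at 2.11, 2.12 and 3.58 FPKM in BCP, against 3.81, 4.31 and 2.32 FPKM in sBCP. It was lower in BCP replicates 1 and 2 than in any sBCP library, but BCP replicate 3 exceeded sBCP replicate 4. Its ratio of means was 0.748 and its log2 difference -0.31 (95% interval from -0.86 to 0.24, limma adjusted p = 1.00). Leaving out single libraries gave log2 differences from -0.51 (sBCP replicate 4) and -0.50 (BCP replicate 3) to -0.17 (sBCP replicate 3), with ratios of 0.641, 0.607 and 0.849.

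Th, the enzyme that makes the catecholamine precursor L-DOPA, varied most between libraries. It was at 0.694, 0.788 and 3.31 FPKM in BCP, against 3.25, 0.889 and 2.34 FPKM in sBCP. High and low libraries occurred in both groups, and the highest was 4.76 times the lowest. The difference was -0.35 with a 95% interval from -1.37 to 0.68 (limma adjusted p = 1.00), which leaves a wide range on both sides of 0. Single libraries moved its size in both directions. The log2 difference was -0.78 when BCP replicate 3 was left out and -0.68 when sBCP replicate 3 was. It was -0.09 when sBCP replicate 1 was left out, -0.11 when BCP replicate 1 was, -0.15 when BCP replicate 2 was and -0.27 when sBCP replicate 4 was. Sympathetic neurons also make Th, and of 7 genes found on their list 3 passed the filter, all with differences above 0. These were the nicotinic receptor gene Chrna3, at 34.3 to 42.4 FPKM in BCP and 25.9 to 44.9 FPKM in sBCP, and the lower Slc18a2 and Gch1. Gch1 was at 0.526, 3.99 and 0.826 FPKM in BCP, against 1.72, 1.20 and 1.17 FPKM in sBCP. Its place above 0 thus rested on BCP replicate 2. Of the genes that did not pass the filter, Ddc, Dbh and Slc6a2 had lower means in BCP and Phox2a a higher one. Dbh and Phox2a, genes of noradrenergic neurons, were at or near 0. Dbh, the enzyme that makes noradrenaline, was at 0 to 0.0344 FPKM in BCP and 0.0560 to 0.102 FPKM in sBCP. Phox2a, a transcription factor of sympathetic neurons, was at 0.0350 FPKM in BCP replicate 2 and listed at 0 in the other 5 libraries. In the libraries where Th was above 2 FPKM (BCP replicate 3 and sBCP replicates 1 and 4), Dbh was at 0.0344, 0.0560 and 0.102 FPKM. In BCP replicates 1 and 2 and sBCP replicate 3, where Th was lower, Dbh was at 0.0136, 0 and 0.0881 FPKM. Slc6a2, the noradrenaline transporter, stayed at 0.0748 to 0.348 FPKM in BCP and 0.346 to 0.465 FPKM in sBCP. The part of such neurons in the Th values was not tested.

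**Figure D2:**
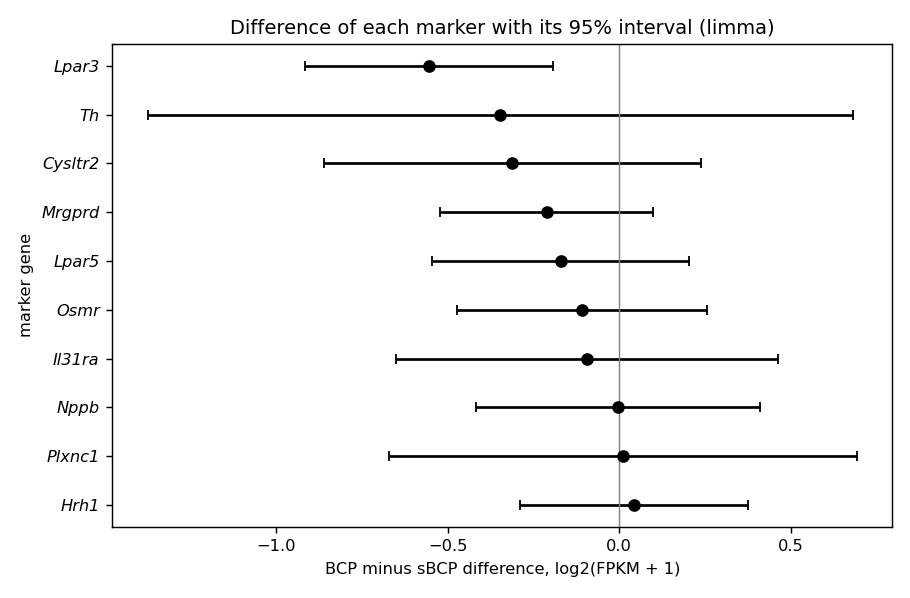
BCP minus sBCP difference of each marker on the log2(FPKM + 1) scale (x axis) with its 95% interval from limma. The interval of Lpar3 runs from -0.91 to -0.19, and the intervals of the other 9 markers include 0.

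As a set, 8 of the 10 markers had a difference below 0, beside 54.5% of all tested features, and 0 passed the test in either direction. Of all tested features 0.0146% were called higher in BCP and 0.168% lower. At an unadjusted p under 0.05 the count was 1, Lpar3. The median difference of the markers was -0.14 on the log2 scale, and that of all tested features -0.01. The markers share the same 6 libraries, so their signs are not independent. Leaving out each library in turn gave 6 to 9 markers below 0 and medians from -0.27 to -0.06. Without BCP replicate 2 there were 8 below 0, with a median of -0.10. Centring each library on its pan-neuronal genes gave 9 below 0 and a median of -0.17, and array weights gave 6 and -0.079. The median of all tested features was -0.042 with that centring and -0.028 with array weights. Centring moves the difference of every feature by the same amount, so its lower median is not a further shift of the markers. Of non-neuronal genes, 8 of 8 for fibroblasts and 6 of 6 for myelinating Schwann cells lay below 0 (medians of -0.34 and -0.15), with 0 called. Macrophage, endothelial and satellite glia genes each had 3 above 0 and 3 below (medians of 0.065, 0.011 and 0.009). Fibroblast genes summed to 378, 545 and 299 FPKM in BCP and to 604, 514 and 389 FPKM in sBCP. Schwann cell genes summed to 9157, 6483 and 7962 FPKM in BCP and to 10289, 7871 and 8427 FPKM in sBCP. Their part in the marker values was not tested.

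The markers did not move as a block across the libraries. Of 45 pairs of markers, 28 had a Pearson r above 0 over the 6 libraries and 17 below, with a median of 0.25. These values describe 6 libraries and share their scaling. The highest was 0.80 for Il31ra with Th, both high in BCP replicate 3 and sBCP replicate 1, followed by 0.77 for Mrgprd with Lpar5. The lowest was -0.67 for Mrgprd with Plxnc1, with sBCP replicate 4 the highest library for Mrgprd and the lowest for Plxnc1. BCP replicate 1 and sBCP replicate 4, the libraries low in Plxnc1, also had the fewest features at or above 1 FPKM, 13404 and 13240, where the other 4 had 13568 to 13881. Whether detection had a part in Plxnc1 was not tested.

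**Figure D3:**
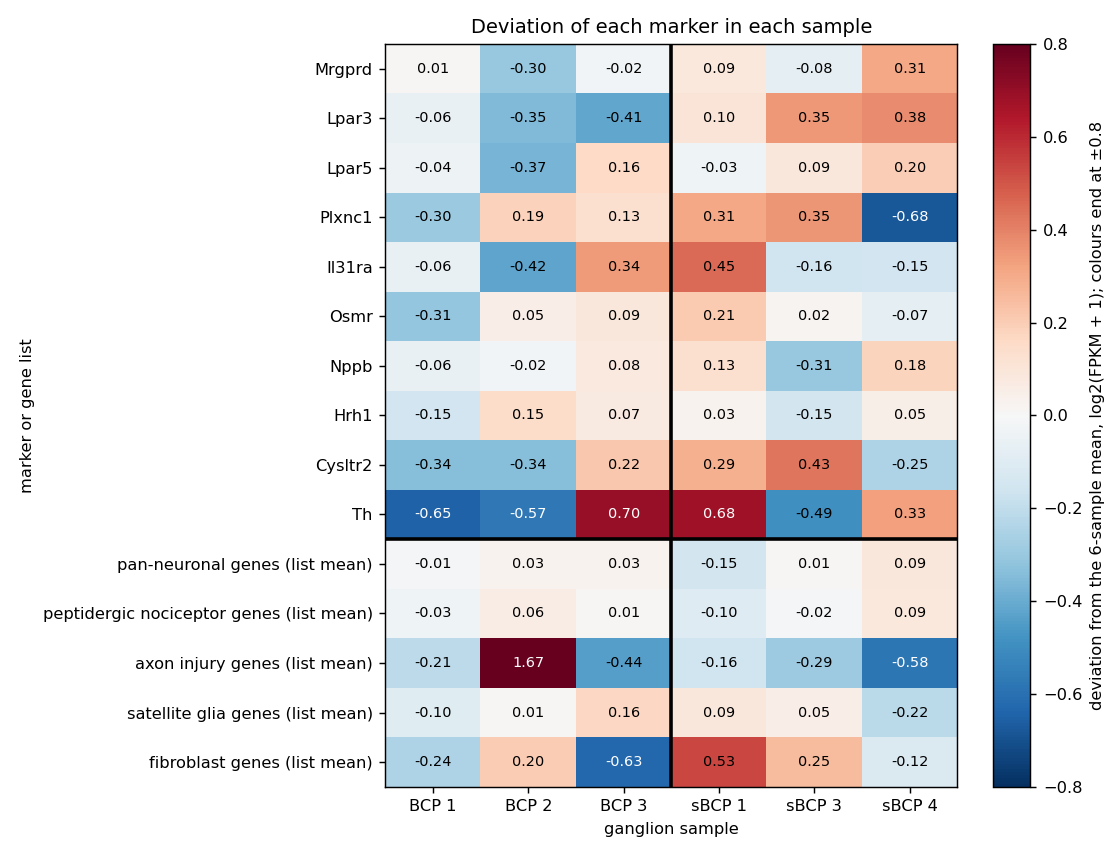
Deviation of each marker (rows above the line) and of the mean of 5 gene lists (rows below it) from its mean over the 6 samples, on the log2(FPKM + 1) scale, for the BCP samples (left of the line) and the sBCP samples (right). BCP replicate 2 has the lowest values of Mrgprd, Lpar5 and Il31ra and the highest of Hrh1 (0.15). Plxnc1 (0.19) and Osmr (0.05) also lie above their means there, and Lpar3, Cysltr2, Th and Nppb lie below theirs without being lowest. The axon injury list is highest in that library (1.67), and pan-neuronal genes stay within -0.15 to 0.09 over the 6 samples.

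The genes most alike to a marker were ranked by Pearson r over the 6 libraries for the 3 markers with a mean of at least 5 FPKM, among 9188 other genes. For Mrgprd they were Ptprf, a receptor tyrosine phosphatase (r = 0.99), Pgm3 (0.98) and Larp1 (0.97). For Il31ra they were Sept3, a septin of neurons (1.00), Dgki, a diacylglycerol kinase (1.00), and Cfap100 (0.99). For Plxnc1 they were Zfp110 (1.00), Cep120 (0.99) and Tspan12 (0.99). These values describe likeness over 6 libraries that share their scaling.

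Other genes of the same neurons were described from lists chosen for the cell classes and pathways, and no gene of these neuronal and pathway lists passed the test (0 called in each). Of 10 tested genes of nonpeptidergic nociceptors, 8 were below 0 and 2 above, with a median of -0.11. P2rx3 was at 122, 126 and 132 FPKM in BCP, against 131, 141 and 145 FPKM in sBCP, a difference of -0.14. Tmem233, another gene marking these neurons in the mouse, averaged 67.6 ± 3.95 FPKM across BCP and 75.4 ± 6.01 FPKM across sBCP (SD, n = 3 each). Agtr1a, an angiotensin II receptor, was at 0.941, 1.00 and 1.18 FPKM in BCP, against 1.38, 1.65 and 1.21 FPKM in sBCP. Agtr1a did not overlap between the groups, by 1.18 FPKM against 1.21 FPKM at the nearest, and its values were close to the filter. Plcb3, a phospholipase downstream of Mas-related and histamine receptors, had a difference of -0.13.

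Of the Mas-related receptor genes, the family of Mrgprd, 13 were found and 5 tested, with 4 below 0, 1 above and a median of -0.09. Mrgprb4 was at 23.3, 24.7 and 22.2 FPKM in BCP, against 27.4, 22.2 and 25.7 FPKM in sBCP, and Mrgprx3 averaged 15.6 ± 0.941 FPKM across BCP and 17.8 ± 2.68 FPKM across sBCP (SD, n = 3 each). Mrgprf had a difference of -0.12. Members of this family resemble each other in sequence, so reads may have been split between them, and their values are uncertain to that extent.

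Itch signalling genes showed no common direction, with 4 of 8 tested genes below 0 and 4 above. Trpa1, the irritant-gated channel, was at 10.0, 8.11 and 11.7 FPKM in BCP, against 14.6, 10.97 and 10.5 FPKM in sBCP, a difference of -0.25. Il6st, the gp130 chain that pairs with Osmr for oncostatin M, had a difference of -0.17. Il4r, the IL-4 receptor chain, was at 4.72, 8.23 and 3.82 FPKM in BCP, against 4.70, 4.43 and 3.83 FPKM in sBCP, with BCP replicate 2 standing out, and Il13ra1 had a difference of 0.18. Sst, the somatostatin precursor that marks the Nppb class in the mouse, averaged 131 ± 13.8 FPKM across BCP and 133 ± 23.5 FPKM across sBCP (SD, n = 3 each). It was named for that role and not by the rule that chose most other examples.

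Of 5 tested genes of C-low-threshold mechanoreceptors other than Th, 3 were above 0 and 2 below, with a median of 0.01. Their mean level was highest in BCP replicate 3 and sBCP replicate 1, the libraries highest in Th. In sBCP replicate 4, where Th was at 2.34 FPKM, it was -0.08 from its 6-library mean on the log2 scale. Its Pearson r with Th over the 6 libraries was 0.65, given as a description. The r of Th was similar with lists of other kinds, at 0.70 for other Mas-related receptor genes and 0.63 for genes of myelinating Schwann cells. Piezo2, the touch-gated channel, was at 49.6, 42.7 and 56.4 FPKM in BCP, against 58.7, 54.9 and 51.4 FPKM in sBCP. Fam19a4, also named Tafa4 and a secreted protein of these neurons in the mouse, had a difference of 0.06, P2ry1 one of 0.02 and Cacna1h, a T-type calcium channel, one of -0.01.

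On the ligand side, 4 of 9 genes found were tested, with 3 below 0, 1 above and a median of -0.10. Enpp2, the autotaxin enzyme that makes lysophosphatidic acid, was at 3.11, 3.48 and 3.97 FPKM in BCP, against 5.50, 4.42 and 2.61 FPKM in sBCP. Sema7a, the ligand of Plxnc1, averaged 75.0 ± 12.2 FPKM across BCP and 77.5 ± 13.9 FPKM across sBCP (SD, n = 3 each). Ltc4s, which makes leukotriene C4, was at 2.11, 5.65 and 0.984 FPKM in BCP, against 1.91, 1.97 and 1.70 FPKM in sBCP, so that BCP replicate 2 was highest and BCP replicate 3 lowest. Alox5ap, which works in the same pathway, had a difference of -0.21. Osm, which encodes oncostatin M, was below the filter, at 0.152 to 0.358 FPKM in BCP and 0.117 to 0.399 FPKM in sBCP.

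Of 16 tested relatives of the marker receptors, 11 were below 0 and 5 above, with a median of -0.08. Lpar6, another lysophosphatidic acid receptor, lay above 0 with a difference of 0.35, at 2.07, 2.82 and 2.12 FPKM in BCP, against 1.51, 2.13 and 1.25 FPKM in sBCP. Plxnd1, a plexin of vessels and neurons, had non-overlapping groups at a small difference of -0.10, while Plxna1 had -0.15 and Npr1, the receptor for natriuretic peptides, -0.17. Peptidergic nociceptor genes had 4 of 7 tested above 0 and 3 below (median of 0.03), and pan-neuronal genes 8 of 13 above 0 and 5 below (median of 0.03). Tac1, the substance P precursor, had a difference of -0.15, Gfra3 one of 0.16, Adcyap1 one of 0.25 and Trpv1 one of -0.10. The difference between the marker list and these lists was not tested.

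**Figure D4:**
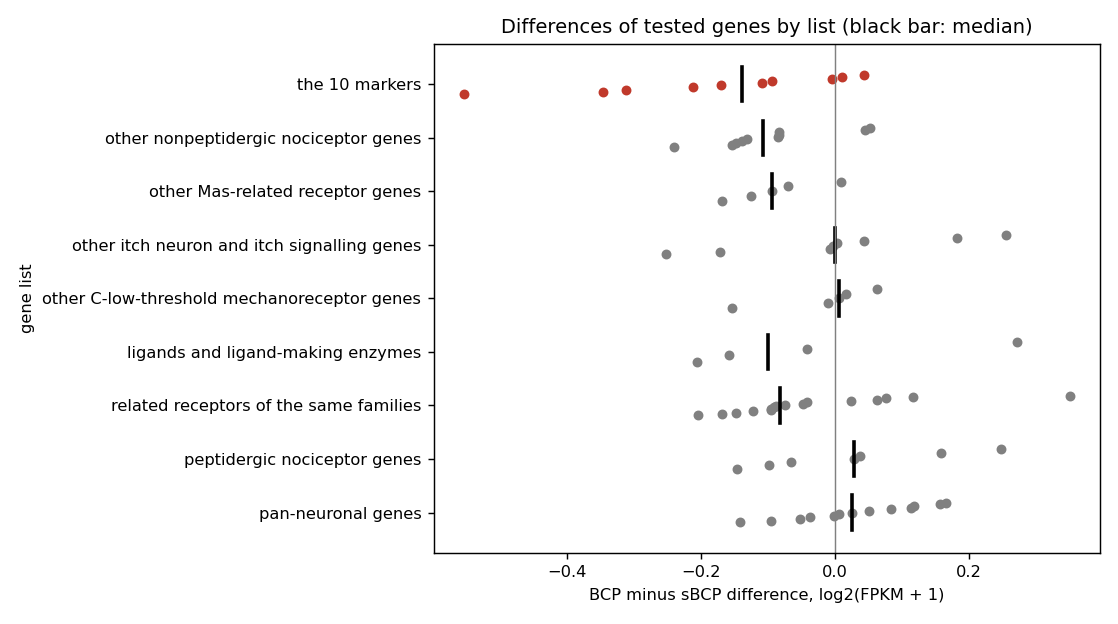
BCP minus sBCP difference on the log2(FPKM + 1) scale (x axis) of each tested gene in 9 lists (rows), with a black bar for the list's median and the 10 markers in red. Of the 9 lists drawn, the markers have the lowest median (-0.14), and Lpar3 has the lowest single value (-0.55) of the genes drawn. Lists not drawn had lower medians, at -0.34 for fibroblast genes, -0.15 for genes of myelinating Schwann cells and -4.61 for skeletal muscle genes.

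A mark of significance is given to 152 genes in the authors' deposited table, with 0 of the 10 markers among them. For Lpar3 the authors' deposited table gives a log2 fold change of -0.81, a p-value of 0.0132 and a q-value of 1, on the scale of mean FPKM with no added constant. For the other 9 markers the p-values of the authors' deposited table lie between 0.377 and 1.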

How the data were processed

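Per the labels' protocols, total RNA with a RIN above the stated minimum was purified on poly-T beads and sequenced in pairs on an Illumina instrument. Which aligner, counting tool, annotation release and genome build were used is not given in the sources used here; only gene-level values were analysed. The authors deposited, per the file headers, 1 FPKM value for each Ensembl gene in each sample, a fold ratio of mean BCP to mean sBCP with its log2, and a p-value and q-value from a test the sources do not name. Read counts could not be rebuilt from the values, which is why no count model and no counting interval are used. Relative depth came from the most frequent ratio of values under 0.5 FPKM in single-transcript features.

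Features reaching 1 FPKM in 3 or more libraries were fitted with limma 3.58.1 (R 4.3.3) on log2(FPKM + 1), a scale that understates changes of low genes. Moderation used a variance trend and no covariate, with Benjamini-Hochberg adjustment at 0.05 over all 13710 features. The fit was checked on simulated data. Genes named from the lists are up to 4 with the smallest unadjusted p. Exceptions named outside this rule are Sst, Tubb3, Uchl1, Lpar1, Osm, Ddc, Dbh, Phox2a and Slc6a2. List genes missing from the table were sought through RefSeq synonyms. The members and lists were chosen with earlier results of these data known. Figures were drawn with matplotlib 3.10.9. No library had the same values as another.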

Additional observations from a re-analysis of the deposited data

How the results depend on the processing

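Under 16 alternatives (pseudocount, filter, scaling, variance trend, array weights, a replicate block, and leaving out each library) 0 of the 10 markers passed. Lpar3 lay between -0.81 and -0.46 in all 16 (limma adjusted p from 0.325 to 1.00). Mrgprd and Cysltr2 also stayed below 0, but Mrgprd came to -0.011 with the replicate block and -0.043 with array weights, against -0.21. The median of the markers was -0.040 with the block and -0.079 with array weights, against -0.14. That of all tested features was -0.042 with the block and -0.028 with array weights, against -0.011. With the block the markers thus lay no lower than all features. Nppb turned to 0.021 and 0.030 with pseudocounts of 0.1 and 0.01, to 0.0023 with median-ratio rescaling, to 0.063 with quantile normalization, to 0.24 with array weights and to 0.10 with the replicate block. Plxnc1 turned to -0.019 with pan-neuronal centring, which moves every difference by the same amount. It turned to -0.32 with array weights and to -0.41 with the block. Array weights, which stopped before convergence, also turned Il31ra to 0.086 and Th to 0.15, and the block turned Lpar5 to 0.029. The cause was not tested. Without single libraries the differences ran from -0.29 to 0.11 for Il31ra, -0.18 to 0.019 for Osmr, -0.16 to 0.086 for Nppb, -0.020 to 0.13 for Hrh1, -0.32 to 0.19 for Plxnc1, -0.29 to -0.03 for Lpar5, -0.51 to -0.17 for Cysltr2 and -0.78 to -0.09 for Th. Over all features, 2 genes were called higher and 23 lower. The count higher was 1 with no filter, 1 with pan-neuronal centring, 4 with array weights (35 lower), 10 with the replicate block, and 0 to 7 without single libraries (13 to 24 lower), with 0 without BCP replicate 1 (254 at an unadjusted limma p under 0.05), 7 without sBCP replicate 4, and 13 lower without BCP replicate 3. The numbers 1 and 3 are in both groups, but no label says that they mark shared animals, and same-numbered samples deviated with r = 0.06 and -0.10 from their group means, so the block is not read as a pairing. Levels near 1 FPKM, as for Nppb, Th and Hrh1, lie near the filter, and the number of fragments behind them is unknown.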
